A study of Mus musculus with 8 samples.

Results

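The plasminogen activation system was followed here through 7 genes: Plau, Plat, Plaur, Serpine2, F3, Tfpi and Tfpi2. A probe was taken as theirs when the array's gene name, or the current symbol of its accession, was one of these names, which gave 16 of 41174 non-control probes. The cells were IMCD3, an established mouse epithelial line that comes from the collecting duct of the inner medulla. Starved IMCD3 cells had spent 48 h without fetal calf serum, which makes them grow cilia, and unstarved IMCD3 cells had 10% serum, had been diluted 1:10 on the previous day and were not confluent. Serum and cell density therefore differed together and cannot be told apart. RNA of 1 starved and 1 unstarved sample was hybridised to each of 4 Agilent 2-colour arrays, giving 8 samples, 4 per group, in 2 replicates of 2 arrays each. Arrays 1 and 3 are replicate 1, with starved RNA in Cy5 by the dye labels, and arrays 2 and 4 are replicate 2, with starved RNA in Cy3. A dye swap within each pair of RNAs, of which the series text tells, is not seen in the labels, so replicate and dye orientation cannot be told apart. It calls the replicates biological, and n = 2 throughout.

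Plasminogen activators are serine proteases that cut plasminogen into plasmin, a protease that dissolves fibrin and degrades pericellular matrix. Plau encodes urokinase, Plat the tissue-type activator, and Plaur the lipid-anchored receptor that holds urokinase at the cell surface, while Serpine2 encodes protease nexin-1, a serpin that inhibits both activators and thrombin. F3 encodes tissue factor, the membrane receptor that starts coagulation with factor VII, Tfpi its Kunitz-type inhibitor, and Tfpi2 a related Kunitz inhibitor that blocks plasmin. Urokinase is secreted by renal tubule epithelium and is found in urine.

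The probes decide what could be seen, so their sequences come first. Each is 60 bases long, with positions on mm8, the build named in the file headers; an annotation of that build was not used here, so no exon or UTR was assigned. For 5 genes, 2 with signal and 3 without, 1 probe is given whole. These 5 were taken as coding because their letters read as a stretch of the gene's protein, a judgement from knowledge of the proteins.
Plau A_51_P305311 (chr14:19629185-19629551, plus strand): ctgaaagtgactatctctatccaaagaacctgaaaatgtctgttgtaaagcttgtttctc
Plaur A_51_P112405 (chr7:24183056-24183115, plus strand): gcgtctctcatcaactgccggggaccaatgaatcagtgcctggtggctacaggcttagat
Serpine2 A_51_P268094 (chr1:79675925-79678542, minus strand): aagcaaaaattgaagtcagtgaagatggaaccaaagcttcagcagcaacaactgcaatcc
Tfpi A_52_P592007 (chr2:84254644-84254703, minus strand): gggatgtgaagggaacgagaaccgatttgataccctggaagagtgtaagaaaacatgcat
Tfpi2 A_51_P216496 (chr6:3915439-3915498, minus strand): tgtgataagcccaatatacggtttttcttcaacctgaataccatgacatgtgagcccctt
The Plau probe covers 367 bases of genome and the Serpine2 probe 2618, so both cross an exon junction. For the 4 members with signal, the brightest probe stands for the gene, and its first 30 bases are given because its place relative to the stop codon was not established here.
Plau A_52_P302433 (chr14:19631572-19631631): gtgtatttctgtatctaactgcaagtctag
Plat A_51_P301566 (chr8:24248165-24248225): atccctccacactcctcaactcttgggaca
Plaur A_52_P681310 (chr7:24184310-24184369): ccctcgtgttgtcttctttggacctcagtt
F3 A_51_P236846 (chr3:121726440-121726499): ggacgaactgaaacggtacaaactggttaa

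The 2 F3 probes overlap by 20 bases on chromosome 3, and there they do not carry the same letters. Capitals mark the differing bases, and positions count from 1 at the 5′ end of the overlap.
F3 A_52_P683413: ggacgaacGgaaacCgtaca
F3 A_51_P236846: ggacgaacTgaaacGgtaca
The substitutions from the first to the second are G9T and C15G, so at most 1 of the probes can match a given allele at both positions. Both gave strong signal in all 8 samples, and both ratios are given with F3.

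Of the 7 genes, 4 were detected: in both groups, each of the 9 probes of Plau, Plat, Plaur and F3 stood well above background on 4 arrays. No member entered the test through 1 group alone. The other 7 probes, 1 of Serpine2, 5 of Tfpi and 1 of Tfpi2, reached that mark on 0 arrays in either group. In starved cells urokinase transcript was 1.53-fold lower and tissue factor transcript 1.33-fold higher, and Plat and Plaur did not pass the test. Replicate log2 ratios (starved over unstarved, n = 2) were tested with limma's moderated test, with Benjamini-Hochberg adjustment over the 16080 genes tested and a threshold of 0.05. It called 31.4% of all genes (18.1% as higher with starvation, 13.4% as lower), and 4.37% of all genes were both called and at least 2-fold apart, which 0 of the members were. With 1 member higher and 1 lower, 4 tested genes are too few to set against those shares. The median log2 ratio was 0.013 over the 4 members and 0.0053 over all genes tested. The member ratios ranged from -0.61 to 0.41.

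**Figure D1:**
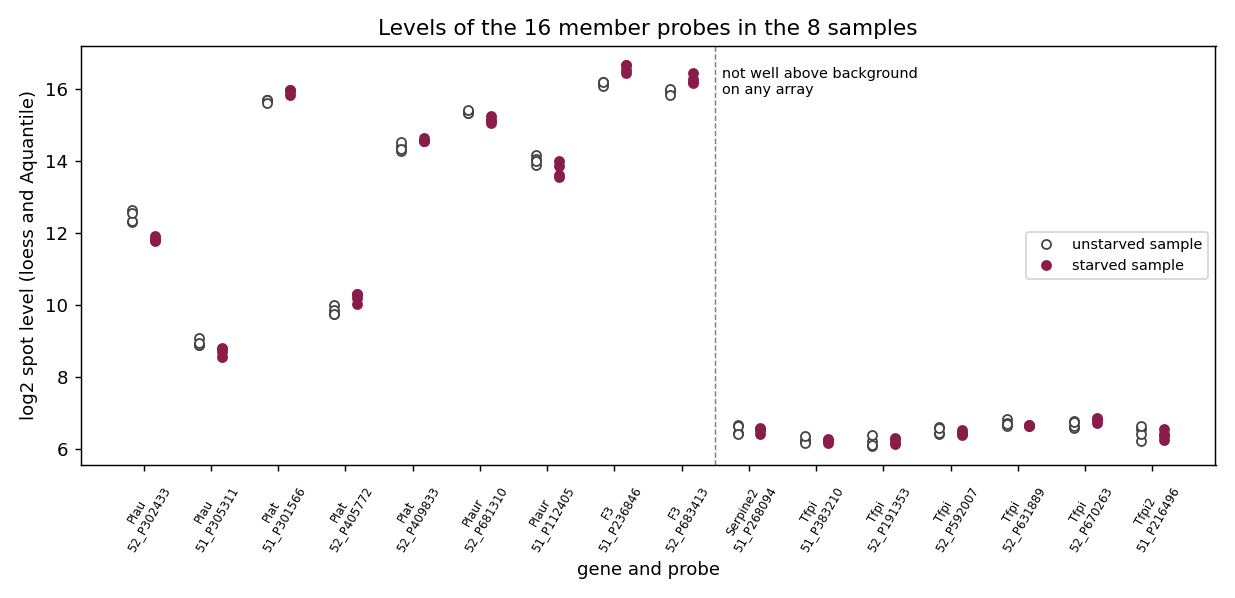
Log2 spot level (after loess and between-array scaling) of each of the 16 member probes in the 4 unstarved samples (open circles) and 4 starved samples (filled circles); heights of different probes cannot be compared. The 9 probes of Plau, Plat, Plaur and F3 lie left of the dashed line, and the 7 of Serpine2, Tfpi and Tfpi2, which were not well above background on any array, lie right of it between 6.08 and 6.85.

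Levels below are log2 spot levels after loess and between-array scaling, in the order of arrays 1 to 4, and differences are log2 ratios within an array. The Plau probe that stands for the gene read 11.77, 11.91, 11.79 and 11.86 in starved samples and 12.29, 12.63, 12.32 and 12.53 in unstarved samples. All 4 starved samples lay below all 4 unstarved samples, a separation in that direction that 23.5% of tested genes showed. The log2 ratios were -0.52, -0.72, -0.54 and -0.67, and their mean over replicates was -0.61 ± 0.12 (SE, n = 2, limma adjusted p = 0.00131). The junction-crossing Plau probe shown above gave a smaller difference, -0.12, -0.41, -0.08 and -0.37 on the 4 arrays. Its levels were 8.76, 8.68, 8.81 and 8.56 in starved and 8.87, 9.08, 8.89 and 8.93 in unstarved samples, again without overlap. Tested among single probes, of which 29.5% were called (16.4% higher and 13.2% lower), it had -0.25 ± 0.13 (n = 2, limma adjusted p = 0.178) and did not pass. The size of the Plau difference thus varied between its probes, with means of -0.61 and -0.25, while the sign was the same on 4 of 4 arrays with both. One sign on all 4 arrays was common, seen in 69.3% of all genes tested, and this holds for the other members below too.

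Plat, the tissue-type activator, differed the other way without passing. Its brightest probe read 15.93, 15.95, 15.96 and 15.82 in starved samples against 15.69, 15.67, 15.69 and 15.59 in unstarved samples. The groups did not overlap; all 4 starved levels lay above all 4 unstarved levels in 28.3% of tested genes. The log2 ratios of 0.24, 0.28, 0.26 and 0.23 were nearly equal on the 4 arrays, with a mean of 0.25 ± 0.12 (n = 2, limma adjusted p = 0.132). The moderated error takes 14.98 degrees of freedom from the spread of all genes and 1 from the gene's own replicates. Of the other 2 Plat probes, A_52_P405772 had 0.20, 0.54, 0.18 and 0.54 and passed among single probes (0.36 ± 0.13, n = 2, limma adjusted p = 0.0481). A_52_P409833 had 0.15, 0.29, 0.04 and 0.30 and did not pass (0.20 ± 0.13, limma adjusted p = 0.281). All 3 probes were higher in starved cells on 4 of 4 arrays, by 0.20 to 0.36 in the mean.

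**Figure D2:**
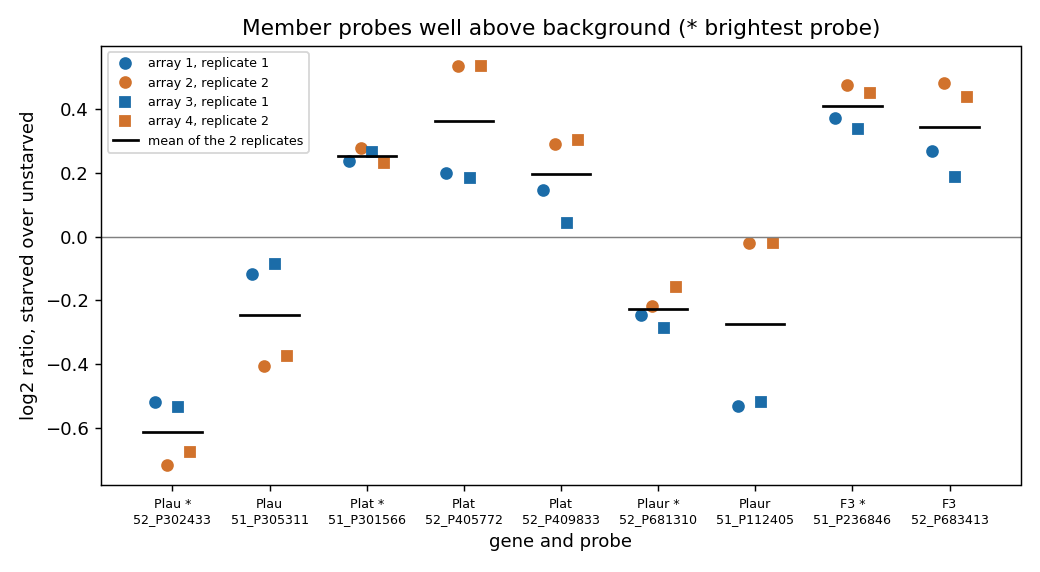
Log2 ratio of starved over unstarved cells on each of the 4 arrays (blue, replicate 1; orange, replicate 2) for the 9 detected member probes, with black bars for the mean of the 2 replicates. Every probe keeps one sign on all 4 arrays, which 69.3% of all genes tested did too. For Plaur probe A_51_P112405 the replicate 1 arrays sit at -0.53 and -0.52 while those of replicate 2 sit at -0.02.

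Plaur, the urokinase receptor, was lower in starved cells on every array with both probes and did not pass with either. Its brightest probe read 15.12, 15.10, 15.03 and 15.24 in starved samples against 15.37, 15.32, 15.32 and 15.40 in unstarved samples, without overlap. The log2 ratios were -0.24, -0.22, -0.29 and -0.16, with a mean of -0.23 ± 0.12 (n = 2, limma adjusted p = 0.182). The coding probe of Plaur had nearly the same mean, -0.27 ± 0.14 (limma adjusted p = 0.160 among single probes), but from unlike replicates. It gave -0.53 and -0.52 on the arrays of replicate 1 and -0.02 on each array of replicate 2. In that probe the unstarved samples read 13.88 to 14.14. The starved sample of array 4, at 13.97, lay within that range, and that of array 2, at 13.86, just below it. The 2 arrays of a replicate repeated each other closely, so the gap lies between replicates, which also differ in dye orientation.

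F3, tissue factor, was the member that rose. Its brightest probe read 16.50, 16.65, 16.42 and 16.64 in starved samples against 16.13, 16.18, 16.08 and 16.19 in unstarved samples. The lowest starved sample lay above the highest unstarved one. The log2 ratios were 0.37, 0.48, 0.34 and 0.45, with a mean of 0.41 ± 0.12 (n = 2, limma adjusted p = 0.0183). The overlapping probe A_52_P683413 read 16.16, 16.43, 16.17 and 16.26 against 15.89, 15.95, 15.99 and 15.82, also without overlap. Its ratios of 0.27, 0.48, 0.19 and 0.44 averaged 0.34 ± 0.13 and missed the threshold among single probes (limma adjusted p = 0.0544). The probes that differ in letters thus gave means of the same sign, each within 1 standard error of the other.

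The F3 and Plau calls were lost with median centring. With only the median of each array set to 0, F3 had 0.71 in replicate 1 and -0.62 in replicate 2, a mean of 0.044 (limma adjusted p = 1.00). Plau had -0.22 and -1.17, a mean of -0.70 (adjusted p = 0.979), and Plat turned to -0.061 from 0.59 and -0.72. Plaur had 0.065 and -1.07, a mean of -0.50. Under that setting the median of all tested genes was itself 0.25 in replicate 1 and -0.40 in replicate 2, so the replicate gaps are to be read against it. With Agilent's own processed signals and with the authors' deposited value table the 4 members stayed near their loess values, for example F3 at 0.44 and Plau at -0.65 with both.

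**Figure D3:**
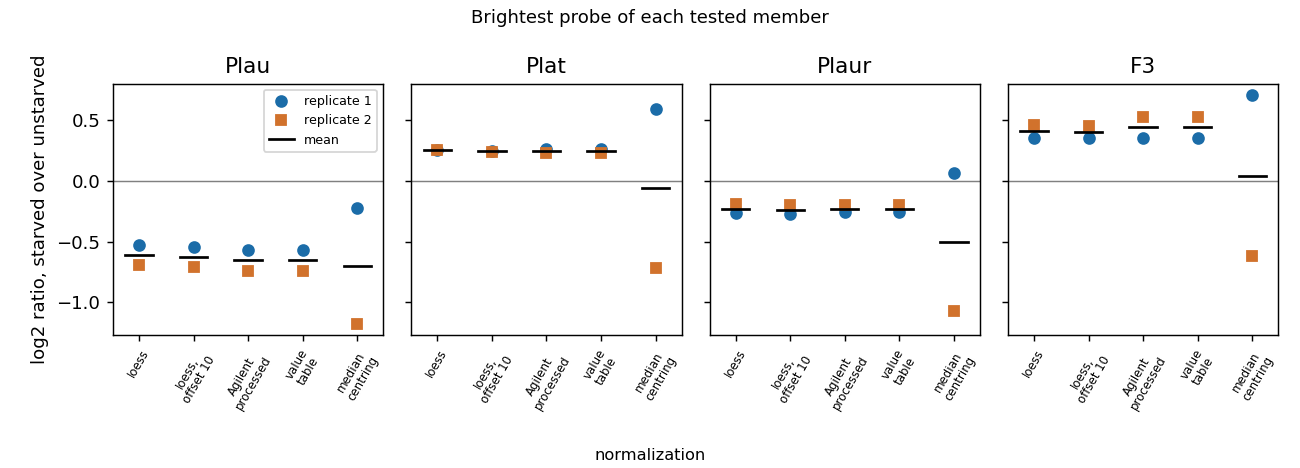
Log2 ratio of starved over unstarved cells of the brightest probe of each detected member under 5 normalizations (blue circles, replicate 1; orange squares, replicate 2; black bars, mean). The first 4 settings keep both replicates together, and with median centring F3 is at 0.71 in replicate 1 and -0.62 in replicate 2.

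The inhibitors among the members gave no signal to compare. Serpine2 read 6.39 to 6.56 in starved and 6.40 to 6.65 in unstarved samples. Its only probe crosses an exon junction, and no other Serpine2 probe was on the array. Tfpi was covered by 5 probes spread from base 84239540 to base 84274601 of chromosome 2, with levels of 6.14 to 6.85 in starved and 6.08 to 6.83 in unstarved samples. The 5 probes include the coding one shown above, and none was well above background in any sample. Tfpi2 read 6.25 to 6.56 in starved and 6.21 to 6.62 in unstarved samples. In all 7 probes the starved and unstarved samples overlapped. Transcripts below the detection limit of these probes cannot be told from absent ones.

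The promoters of F3 and Plaur are shown because both hold the letters of an AP-1 site, TGANTCA, and their transcripts differed in sign between the groups, F3 called higher and Plaur lower without passing. They come from RefSeq on GRCm38.p6, are the 250 bases before the start site, and have the matches in capitals. Of the 7 members, 5 matched an entry, and Plau and Plat did not, so the counts below do not cover them.
F3 promoter (chr3:121723287-121723536, plus strand): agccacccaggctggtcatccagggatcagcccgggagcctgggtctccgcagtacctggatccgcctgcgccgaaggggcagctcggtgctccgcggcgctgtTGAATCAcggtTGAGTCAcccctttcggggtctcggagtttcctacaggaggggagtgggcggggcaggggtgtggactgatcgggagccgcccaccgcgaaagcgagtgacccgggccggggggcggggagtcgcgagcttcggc
Plaur promoter (chr7:24462233-24462482, plus strand): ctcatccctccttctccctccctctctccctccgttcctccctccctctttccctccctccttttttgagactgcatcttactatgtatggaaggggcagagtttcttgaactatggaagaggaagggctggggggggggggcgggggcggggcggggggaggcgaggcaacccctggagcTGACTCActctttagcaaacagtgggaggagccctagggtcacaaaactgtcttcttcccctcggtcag
F3 had 2 matches, starting 146 and 135 bases before the start site, and Plaur had 1, at 69 bases. Tfpi2 had 1 at 77 bases before 1 of its 3 start sites, and Serpine2 and both Tfpi start sites had 0, so 3 of the members' 8 start-site windows held the letters on either strand. The windows of the Tfpi2 start sites without a match overlap each other, so the 8 are not all separate. Among all 32807 windows of this length, 6.75% did. The GC box letters GGGCGG occurred in 6 of the 8 windows and in 32.7% of all windows. The EGR letters GCGGGGGCG or GCGTGGGCG, which can overlap a GC box, occurred in 3 of the 8, those of Plaur, Serpine2 and 1 Tfpi2 site, and in 3.06% of all windows. The TEAD letters GGAATG and the CRE letters TGACGTCA were in 0 of the 8, and in 12.6% and 1.55% of all windows. These are descriptions of letters in a window.

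Among 24 other genes of plasminogen activation, both genes of the annexin A2 complex fell, and 3 uptake receptors rose. Of the 14 tested, 6 rose and 3 fell (64.3%); their log2 ratios ran from -0.92 to 2.16 around a median of 0.19; over all genes 31.4% were called and the median was 0.0053. The list was set with earlier results known and is not complete, so its share is a description and no evidence that the list stands apart. The 2 subunits of the annexin A2 complex, which binds plasminogen and the tissue-type activator at the cell surface, fell together, Anxa2 by 0.92 and S100a10 by 0.54 on the log2 scale. Plgrkt, another plasminogen receptor, rose (0.69 ± 0.12, limma adjusted p = 4.58e-04). Eno1, an enolase that can bind plasminogen at the surface, was called lower at -0.67, from -1.30 in replicate 1 and -0.043 in replicate 2; near-identical copies of this gene make its probe uncertain, and its call was lost without the replicate block (limma adjusted p = 0.0511) and with a random block (0.0896).

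The 3 receptors given here that take up protease-inhibitor complexes or bind Plaur protein rose with their brightest probe. Vldlr rose 4.46-fold (2.20, 2.11, 2.15 and 2.16 on the 4 arrays, limma adjusted p = 2.12e-09), Lrp1 2.11-fold and Igf2r 1.37-fold. Hpn, the membrane protease hepsin, rose 2.12-fold (1.09 on the log2 scale) with its brightest probe, while its dimmer probe had 0.34 and did not pass among single probes (limma adjusted p = 0.0595). Spint1, a Kunitz inhibitor of such proteases, rose 1.43-fold. Cpb2, Serpinf2, Serpini1, Spint2 and St14 did not pass, at -0.16 to 0.22. Plg, the substrate itself, and Serpinb2, a serpin that inhibits urokinase, were among 9 of the list's 10 untested genes that were above background on 0 arrays with any probe; the tenth, Mst1, reached 3.

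**Figure D4:**
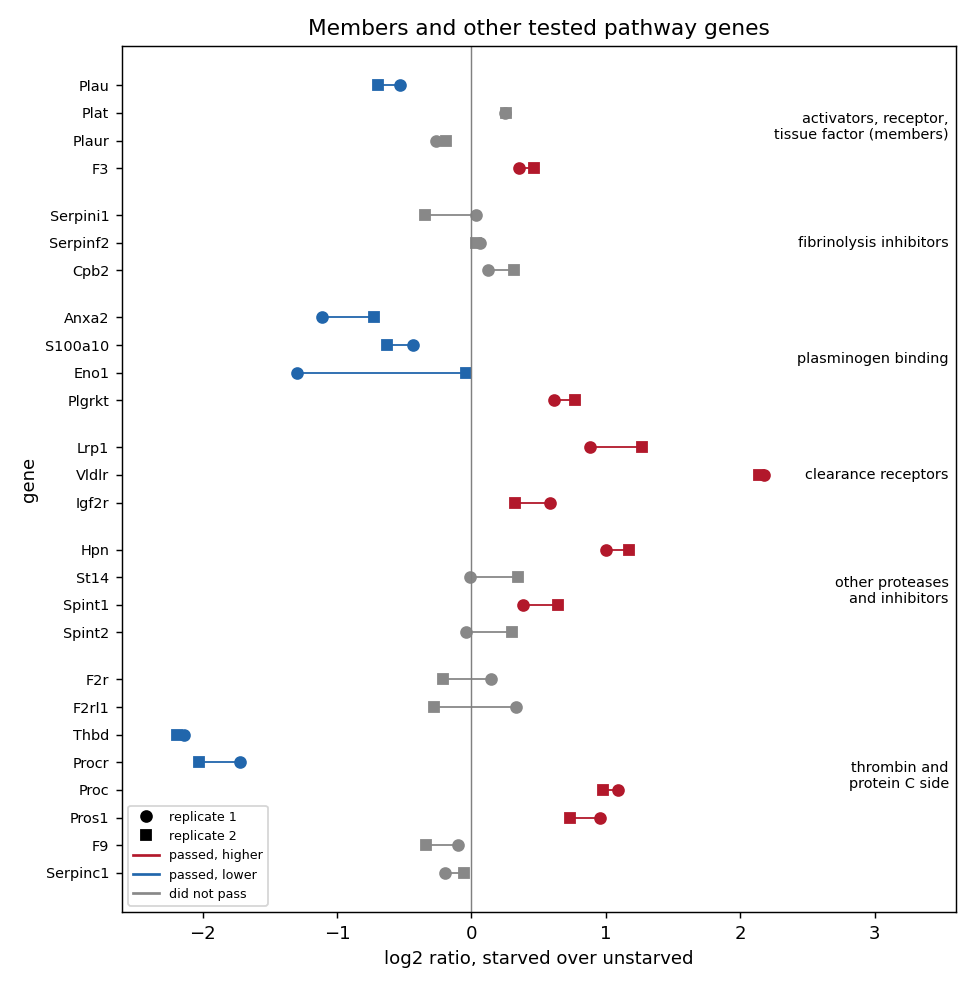
Log2 ratio of starved over unstarved cells in replicate 1 (circles) and replicate 2 (squares) for the 4 detected members and 22 other tested pathway genes, grouped by role and coloured by limma's call. Plau, Plat, Plaur and F3 lie between -0.70 and 0.46, Thbd and Procr at the far left, and Vldlr at the far right near 2.16.

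On the tissue factor side, F3 rose while the receptors of the anticoagulant protein C system fell. Of 20 other genes, 8 were tested; 2 rose and 2 fell, beside 18.1% of all genes called higher and 13.4% lower, and the median log2 ratio was -0.081, beside 0.0053 for all genes. This list too was set with earlier results known. Thbd, thrombomodulin, which turns thrombin towards protein C, fell 4.49-fold (-2.12, -2.18, -2.16 and -2.21 on the 4 arrays, limma adjusted p = 2.06e-09). Procr, the endothelial protein C receptor, fell 3.66-fold (-1.87 ± 0.13, limma adjusted p = 1.77e-08). Proc, protein C, rose 2.05-fold, and Pros1, its cofactor protein S, 1.79-fold. F2r and F2rl1, protease-activated receptors, did not pass, and for each the 2 replicates had opposite signs (0.14 and -0.21 for F2r, 0.33 and -0.28 for F2rl1). F7, which tissue factor binds, and F10, which the complex activates, were not tested; F10 was above background on 0 arrays and F7, like Proz, on at most 1. Of the 15 members and pathway genes named as called, 3 kept their call with median centring: Vldlr, Thbd and Procr. The cell type markers below are not in this count.

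Genes whose 4 array ratios lay nearest to those of F3, by Euclidean distance over the 4 arrays among 16061 tested genes with a ratio on every array, members left out, were Hoxb13 (distance 0.019), Kyat1 (0.020) and Abhd14b (0.022). Nearest to Plau were Nop56 (0.027), a transcript with only an array identifier (0.033) and Spcs3 (0.035). The likeness covers 4 arrays of 2 replicates.

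Markers of cell types that can make these proteins were read in the same samples. Of 15 collecting duct and epithelial markers, 15 were tested, and Cdh1, Cldn4, Cldn7, Epcam and Hsd11b2 rose while Krt8 fell. Hsd11b2 met the filter only in the starved group, with its probe well above background on 4 starved arrays and 1 unstarved array. The sum of spot levels over these markers was 534536 to 580880 in starved and 557037 to 608182 in unstarved samples. Krt8 made up 23.3% to 30.3% of that sum in starved and 38.9% to 40.1% in unstarved samples. Without Krt8 the markers summed to 401808 to 411059 in starved and 336083 to 364158 in unstarved samples. Of 10 endothelial markers, which bear on Plat, Thbd, Procr and Tfpi, 7 (Pecam1, Cdh5, Kdr, Tie1, Vwf, Emcn and Esam) were above background on 0 arrays. The endothelial sum of spot levels was 1972 to 2167 in starved and 3024 to 3272 in unstarved samples. Flt1, the 1 tested marker, fell by 1.02 on the log2 scale and made up 50.5% to 70.0% of that sum; the other 9 summed to 956 to 1033 against 967 to 1043. Of 10 leukocyte markers, which bear on Plau and Plaur, 4 (Itgam, Adgre1, Lyz2 and Fcgr1) were above background on 0 arrays. The leukocyte sum was 9482 to 10368 in starved and 4593 to 4741 in unstarved samples, with Csf1r (1.44) and Aif1 (1.49) higher. Csf1r alone made up 79.4% to 82.0% of it in starved and 60.8% to 64.6% in unstarved samples, and the other 9 markers summed to 1793 to 1949 against 1625 to 1860, which overlap. Such sums add spots of unlike probes and measure no share of cells. The fibroblast sum, with 6 of 9 markers above background on 0 arrays, was 1191 to 1260 against 1559 to 1690. Col1a1 (-1.01) and Postn (-1.03) were called lower and Col1a2 (-0.11) was not called. The Postn probe was well above background on 0 starved and 4 unstarved arrays. It entered the test only through the unstarved group, so its difference is a bound, lower in starved samples by at least 0.93 on the log2 scale. The sum of 5 megakaryocyte markers was 673 to 733 against 708 to 766, with opposite calls inside it: Itga2b higher (0.47) and Pf4 lower (-0.51). The part of these shifts in the member values was not tested, and fewer cells with a transcript cannot be told apart from less transcript per cell.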

How the data were processed

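The authors deposited, per the file headers, Agilent Feature Extraction 9.5.3.1 output: spot intensity (mean signal, median local background) without correction, a processed intensity that is background-subtracted and dye-normalized, and 0 or 1 flags. The deposited value table holds linear intensity; its within-array ratios matched those of the processed signals, and its scaling by the authors is unstated (column medians 74.7 to 77.1). Both files of an array were equal on all 4 arrays.

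Here, intensities were background-corrected (normexp, offset 50) and loess-normalized within arrays (limma 3.58.1, R 4.3.3), without 1639 control spots per array, 583 flagged spots and with 0 saturated spots. Probes well above background on 4 arrays in a group were tested; the brightest stands for the gene. Single-sample levels followed Aquantile scaling. The 2 arrays of a replicate were averaged (lmFit, eBayes, 1 residual and 14.98 prior degrees of freedom, prior SD 0.18). Starved and unstarved samples are paired within arrays, per the labels; same-numbered samples' deviations correlated at -0.297. Names came from RefSeq accessions for 24375 probes, current symbols for 6301 and synonyms for 2426; 8072 kept the array's name. Named are all members, every pathway gene in the list counts that passed, 10 pathway genes set by hand, and the 3 genes nearest to the highest and lowest member; genes that did not pass and marker genes were named after their values were seen. In data simulated for this comparison over 16080 genes, 100 of 100 changes of 1 on the log2 scale and 61 of 100 of 0.5 were recovered, with 38 false calls. The simulation changed far fewer genes than the 5052 called in the data and drew replicate errors independently, without a dye effect. Its rates of recovered and false calls therefore do not carry over to the data. Precision is limited by the number of arrays and, since the 2 arrays of a replicate repeat each other (r at least 0.991), by the 2 replicates. Some pathway genes are not reported here, for reasons unrelated to their values, and were left out of the list counts after these had been seen. The members and lists were chosen with earlier results of these data known.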

Additional observations from a re-analysis of the deposited data

How the results depend on the processing

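Direction and call of Plau and F3 were the same in all settings tried except median centring, where both lost the call, and with single probes, where their dimmer probes did not pass; Plau ranged from -0.70 to -0.25 and F3 from 0.04 to 0.46. Plat (-0.061) and F2rl1 (-0.022) reversed with median centring. Among the other named pathway genes, Eno1 alone lost its call apart from median centring. These genes were run in the same settings without the single probes and crossed numbers. For Eno1 the limma adjusted p was 0.0507 with the mean of all probes, 0.0896 with a random replicate block and 0.0511 with no replicate block. With median centring 249 of all genes were called, 0 members higher and 0 lower, 1 plasminogen activation gene higher and 0 lower, and 0 tissue factor side genes higher. With a dye term, array pairs 1+2 and 3+4, or 1+4 and 2+3, all of which take the replicate gap out of the error, 14198, 14298 and 14105 genes were called, each with 2 members higher, 2 lower and 4 tissue factor side genes lower; the pairs 1+2 and 3+4 gave 10 plasminogen activation genes higher. Without the replicate block (pairing) 5862 genes were called, 1 member in each direction. Crossed replicate numbers, added after seeing the data as were the single probes, gave 7606, with 2 members higher and 2 lower. Leaving out a replicate leaves 1 value and no test. Leaving out an array changed no call among the members and named pathway genes. Spots at background bound what could be seen of Serpine2, Tfpi and Tfpi2.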
